A study of Mus musculus with 167 samples.

Results

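The Hox cluster genes are the protein-coding genes of the Hoxa, Hoxb, Hoxc and Hoxd clusters, chosen by name alone: cluster letter and number, with no antisense or noncoding symbol. All 39 mouse members were found among the 36118 genes of the count table, 11 in Hoxa, 10 in Hoxb and 9 each in Hoxc and Hoxd. The series holds RNA-seq of 167 tumours, from 119 mice of 35 crosses. Each cross mated males of a Collaborative Cross strain, a panel of recombinant inbred mice, with MexTAg females, which carry the large T antigen of a simian virus under the mesothelin promoter, a promoter active in mesothelial cells. All mice received 2 intraperitoneal injections of 3 mg crocidolite asbestos, and no further treatment is labelled. Survival was above the median of the study in 83 mice and below it in 36 mice, which gave 52 of the tumours. There is no mouse without asbestos or without the transgene among them, and their ages were not used here. Of the 119 mice, 35 gave several tumours, at most 6, and the labels do not say whether these were separate primary lesions.

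Hox proteins are homeodomain transcription factors that give cells of the embryo their position along the body axis. Within each cluster the genes lie in numerical order, and low-numbered members are active early and toward the head, high-numbered members later and toward the tail, limbs and urogenital tract. Adult mesenchymal and mesothelial cells keep much of this position code, and Polycomb proteins keep the unused part of each cluster silent.

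Library totals ranged from 11138491 to 35399287 counts (median 22539831), and levels are given as CPM, counts scaled to a common library size with TMM factors. Libraries differed in the tissue they held. In 18 libraries marker genes of another tissue, such as seminal vesicle, intestine or kidney, held over 1% of counts. In 35 libraries the seminal vesicle gene Svs5 was over 10 CPM. Msln, the mesothelial antigen that gave the transgene its promoter, ranged from 0.596 to 1172 CPM, with a median of 16.7 CPM. In 21 libraries of 13 mice Ptprc, a surface phosphatase of all leukocytes, exceeded 500 CPM (612 to 1608 CPM), whereas the other libraries reached at most 456.7 CPM. The T cell receptor chain Cd3e was at 33.5 to 314 CPM in these 21 libraries, and the median of Msln was 4.64 CPM against 20.04 CPM in the rest. The 18 mesothelial markers, from Msln, Wt1 and Upk3b to Tcf21, together held 0.0018% to 0.0633% of counts in the 21 libraries and 0.0051% to 0.789% in the others. Of the 21, 10 came from strain CC044 and 6 from CC053. The limit of 500 CPM was chosen after seeing the data. Another 6 libraries, of which 1 was also rich in Ptprc, were nearer in their strain-specific genes to another strain than to the labelled one by over 0.1 in correlation. Whether the 21 libraries hold tumour was not tested, and they are counted among the 167 unless stated. The main results are given with and without either kind. In whole tumours, fewer cells of a type and less RNA per cell cannot be told apart.

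A central member led each of the 4 clusters more often than any other member did, whereas the members numbered 11 to 13 had medians below 1 CPM. Their number of mice at 1 CPM or more ran from 0 for Hoxd12 to 48 for Hoxa11, with 44 for Hoxa13 and 35 for Hoxd13. Some lower-numbered members, such as Hoxb9 (0.669 CPM) and Hoxd10 (0.384 CPM), also had medians below 1 CPM. In GRCm38 the Hoxa cluster lies at chr6:52155590-52260880, Hoxb at chr11:96194316-96368256, Hoxc at chr15:102921103-103036852 and Hoxd at chr2:74668310-74765142. With counts divided by transcript length, the leading member of its cluster was Hoxc6 in 134 of 167 tumours, Hoxb7 in 100 and Hoxa7 in 83. In the Hoxd cluster it was Hoxd8 in 88.02% of tumours. Without the Ptprc-rich libraries these shares were 84.2% for Hoxc6, 63.7% for Hoxb7, 43.2% for Hoxa7 and 89.7% for Hoxd8. The median level per kilobase over mice was 14.7 CPM per kb for Hoxc6, 7.84 for Hoxa7, 7.35 for Hoxd8 and 7.26 for Hoxb7. All 4 belong to the central, trunk-specifying paralogue groups.

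**Figure D1:**
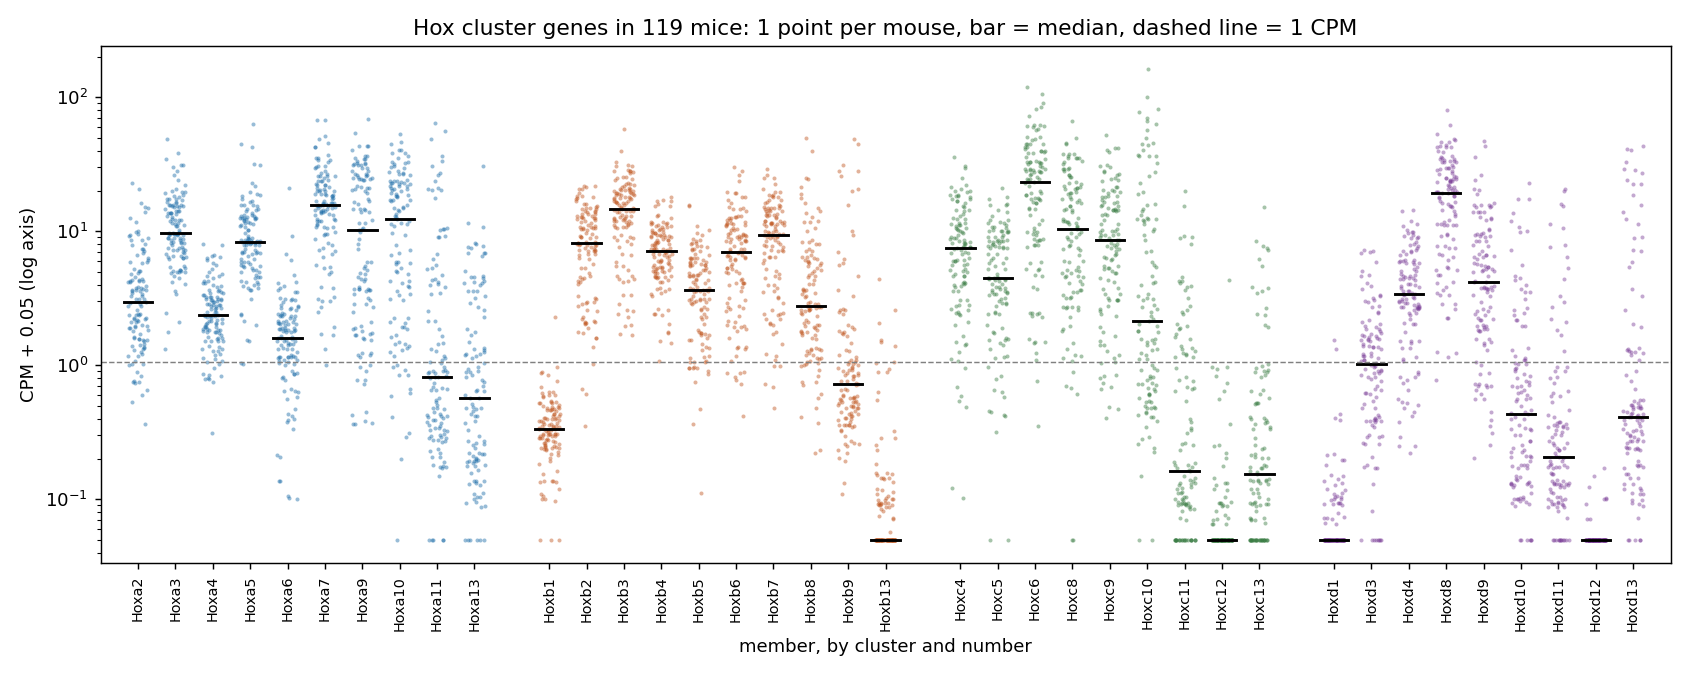
Level of 38 of the 39 Hox cluster genes in 119 mice, as CPM + 0.05 on a log axis, with 1 point per mouse and a bar at the median, ordered by cluster and number. The medians of members numbered 11 to 13 lie below 1 CPM in every cluster, and single mice of these members reach up to 63.8 CPM.

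In the Hoxa cluster the medians over mice ran from 0.524 CPM for Hoxa13, a regulator of digits and the urogenital tract, to 15.7 CPM for Hoxa7. Hoxa3 and Hoxa7 were at 1 CPM or more in 119 and 118 of 119 mice. Hoxa10, a regulator of lumbar vertebrae and the uterus, ranged from 0 to 53.04 CPM with a median of 12.3 CPM, and Hoxa9, a regulator of blood progenitors, from 0.313 to 68.7 CPM with a median of 10.2 CPM. Hoxa11, which patterns the forearm and uterus, had a median of 0.764 CPM and reached 63.8 CPM in mouse Rogan-J2. The highest-numbered Hoxa member at 1 CPM or more was Hoxa10 in 66 tumours, Hoxa13 in 57, Hoxa11 and Hoxa7 in 16 each, Hoxa9 in 11 and Hoxa5 in 1. Hoxa13 was thus at 1 CPM in 57 tumours, against 62 for Hoxa11.

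In the Hoxb cluster the highest-numbered member at 1 CPM or more was mostly Hoxb8 (80 tumours) or Hoxb9 (54 tumours). Hoxb9 is a regulator of thoracic vertebrae. Hoxb3 and Hoxb4 were at 1 CPM or more in all 119 mice, Hoxb3 from 1.63 to 57.8 CPM and Hoxb4 from 1.03 to 18.01 CPM. Hoxb9 had a median of 0.669 CPM and reached 48.5 CPM. Hoxb13, which in the adult marks prostate and the end of the gut, was at 1 CPM or more in 13 tumours, and in 7 mice by their summed counts. Hoxb1, a hindbrain gene at the other end of the cluster, reached 1 CPM in 1 tumour.

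The Hoxc cluster held the widest range of a single member: Hoxc10, a regulator of lumbar motor neurons, went from 0 to 162 CPM over mice with a median of 2.09 CPM. Hoxc6 ranged from 0.299 to 118 CPM with a median of 23.2 CPM. The highest-numbered member at 1 CPM or more was Hoxc9 in 54 tumours, Hoxc10 in 53, Hoxc13 in 25 and Hoxc11 in 22. Hoxc13, a hair and nail gene, had a median of 0.104 CPM and reached 15.03 CPM in mouse CC060-G2. Hoxc12 was at 1 CPM in 3 tumours. In the annotation Hoxc5 shares exon sequence with Hoxc10 on the same strand, as do Hoxd3 and Hoxd4, so the split of counts within these pairs is uncertain.

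In the Hoxd cluster Hoxd8 had a median of 19.4 CPM (0.731 to 79.8 CPM). The highest-numbered member at 1 CPM or more was Hoxd9 in 79 tumours. It was Hoxd13, a regulator of digits and the genital tubercle, in 46 tumours. Members between could be missing, as Hoxd11 was at 1 CPM in 25 tumours and Hoxd12 in 0. Hoxd13 had a median of 0.359 CPM and a highest value of 43.3 CPM, in mouse CIS-E2. Hoxd1 reached 1 CPM in 2 tumours, and the highest value of Hoxd12 over mice was 0.121 CPM. The number of members at 1 CPM or more per tumour had a median of 9 of 11 in Hoxa, 7 of 10 in Hoxb, 6 of 9 in Hoxc and 4 of 9 in Hoxd, and these medians were the same without the Ptprc-rich libraries.

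The 21 libraries rich in Ptprc carried less Hox expression. Their summed CPM of the 39 members ranged from 50.9 to 148.4 with a median of 82.1, against 26.5 to 688 with a median of 284 in the other libraries, so that the ranges overlapped. The median of 31 of the 39 members was lower in them, with Hoxc6 at 4.18 against 27.7 CPM and Hoxa10 at 1.63 against 14.4 CPM. The median was higher in them for Hoxb13, at 0.796 CPM against 0, and for Hoxd10 (0.636 against 0.307 CPM), Hoxb1 (0.355 against 0.258 CPM), Hoxc10 (1.801 against 1.607 CPM) and Hoxd11 (0.152 against 0.133 CPM). Of the 13 tumours with Hoxb13 at 1 CPM or more, 9 were among the 21. Over the mice without such a library, all but 13, members were also related to the share of fibroblast and mesothelial markers, in 78 relations tested together by 100000 permutations. The strongest was Hoxc8 with the fibroblast markers, at a Spearman's rho of 0.437 (permutation p = 1e-05, adjusted p = 0.00078). Its Pearson's r was 0.486 (permutation p = 1e-05, adjusted p = 0.000156), and 0.455 without the 2 mice farthest from the median. By rho, Hoxb2, Hoxc4, Hoxc5, Hoxc6, Hoxc8 and Hoxc9 were past an adjusted p of 0.05 with the fibroblast list, all positive. By r these passed too, and so did more members, among them Hoxa3, Hoxa10, Hoxb3, Hoxb4, Hoxb7 and Hoxd8, all positive. With the mesothelial list 4 members were past it by rho, 3 of them with a negative rho, which were Hoxb3, Hoxb4 and Hoxd8. The other had a positive rho. By r, Hoxd8 was not past it with the mesothelial list (r = -0.24, permutation test, adjusted p = 0.0516). Beyond fits that left out some libraries, the part of cell content in the comparisons that follow was not tested.

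Tumours of the same mouse resembled each other in their Hox code, more than tumours of different mice of the same strain. Over the 39 members the median correlation of log2 CPM between 2 tumours was 0.959 for the 68 pairs from 1 mouse and 0.748 for the 390 pairs from different mice of a strain. These pairs share libraries, and mice with more tumours give more pairs, most of all CC074-B3 with 6 tumours. The values are a description and not a mean over mice. The median absolute difference of a member was 0.41 on the log2 CPM scale within a mouse and 1.06 between mice of a strain. For members numbered 9 to 13 the differences were 0.48 and 1.26, and for those numbered 1 to 8 they were 0.38 and 0.99. The highest-numbered member at 1 CPM was the same in 54.4% of the pairs of a mouse in Hoxa, 60.3% in Hoxb, 58.8% in Hoxc and 60.3% in Hoxd. Between mice of a strain these shares were 27.4%, 33.1%, 27.4% and 34.1%. Without both the Ptprc-rich libraries and those nearer to another strain, the median correlation was 0.971 over 46 pairs and 0.730 over 226 pairs. The differences of a member were then 0.35 and 1.06. The shares with the same highest-numbered member were 67.4%, 65.2%, 65.2% and 67.4% within a mouse and 29.2%, 35.4%, 25.7% and 39.8% between mice, in the order of the clusters.

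**Figure D2:**
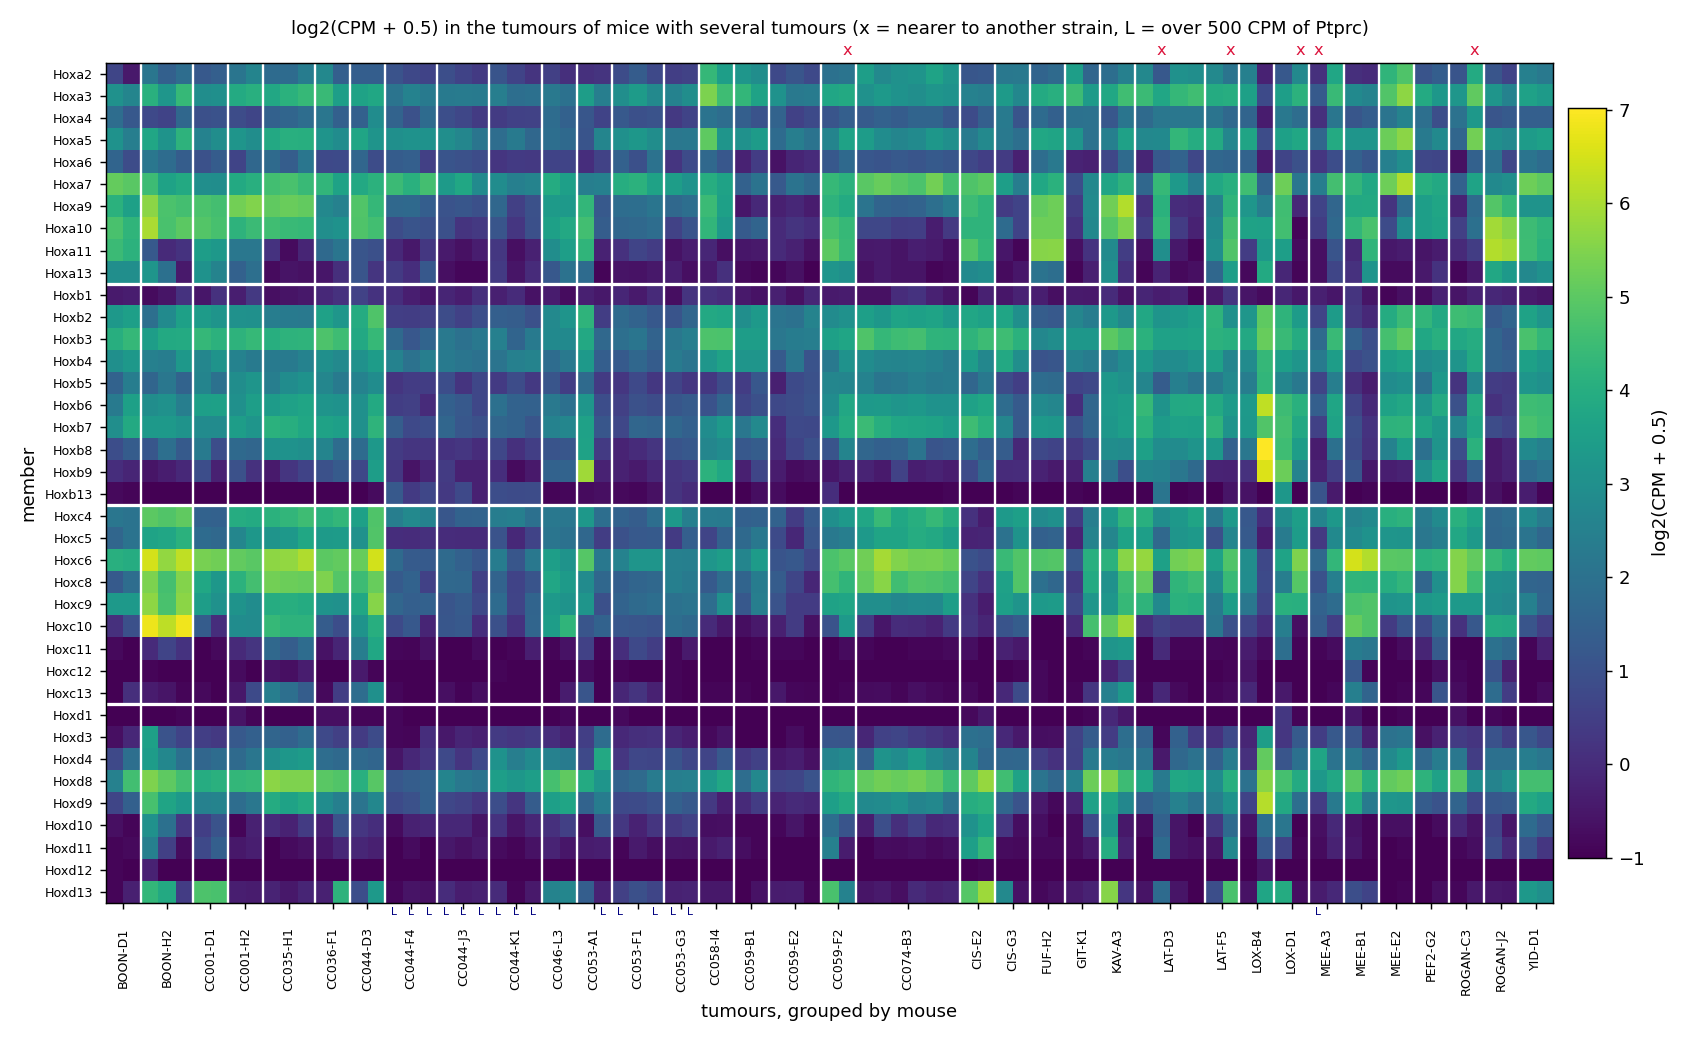
Level of 38 of the 39 members (rows) as log2(CPM + 0.5) in every tumour of the 35 mice with several tumours (columns, white lines between mice). Red crosses mark the libraries nearer to another strain and L those over 500 CPM of Ptprc. Columns of most mice look alike, and they differ within mice with a cross such as LAT-D3 and LOX-D1, and also within LOX-B4, CC053-A1, GIT-K1 and KAV-A3.

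The differences between mice of a strain were tested in the 58 tumours of 25 mice in 10 strains with at least 2 such mice, with edgeR's quasi-likelihood F-test and Benjamini-Hochberg adjustment over all genes. Of the 37 members tested 35 differed between mice at an adjusted p under 0.05, against 63.3% of all 20305 genes tested. The exceptions were Hoxb13 (adjusted p = 0.0779) and Hoxb1 (adjusted p = 0.656), and Hoxd1 and Hoxd12 were too low to be tested. Without both the Ptprc-rich libraries and those nearer to another strain, 22 tumours of 10 mice in 5 strains were left, and 30 of 35 members tested passed against 19.3% of all genes, all 30 of them among the 35. Hoxb9, which passed with all libraries (adjusted p = 0.000509), did not pass there (adjusted p = 0.163) or with limma-voom (adjusted p = 0.359). The 4 members of lowest p were all Hoxc genes: Hoxc4 (F = 18.7, adjusted p = 6.79e-09), Hoxc9 (F = 15.6, adjusted p = 4.71e-08), Hoxc6 (F = 13.6, adjusted p = 1.43e-07) and Hoxc10 (F = 11.4, adjusted p = 7.38e-07). All 4 passed under each of the 9 alternatives, with a highest adjusted p of 0.000471 for Hoxc9.

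The values by tumour show how closely the tumours of a mouse kept together. The mice named here are of different strains, so their contrasts do not show a difference between mice of a strain. CC074-B3 and CC035-H1 were not in the test above. In mouse CC074-B3 the 6 tumours held 38.6, 60.4, 45.04, 39.1, 40.6 and 35.5 CPM of Hoxc6, and 0.780, 0.195, 0.523, 0.47, 0.371 and 0.793 CPM of Hoxc10. In mouse BOON-H2 the 3 tumours were as high for Hoxc6, at 75.3, 91.2 and 51.8 CPM, but Hoxc10 was at 114.9, 111.3 and 75.1 CPM. The groups did not overlap for Hoxc10, which was above 1 CPM in every tumour of BOON-H2 and below it in every tumour of CC074-B3. Hoxc6 was low, at 1.63, 1.13 and 1.81 CPM, in the 3 tumours of mouse CC059-E2, none of which was rich in Ptprc. In mouse CC035-H1 Hoxc10 was at 20.3, 17.8 and 17.9 CPM. Hoxc4, a low-numbered member, was at 32.8, 31.9 and 28.1 CPM in BOON-H2 and at 2.36, 1.89 and 0.856 CPM in CC059-E2. Tumours of a mouse did not always agree at the far end of a cluster: Hoxd13 was at 0.850, 19.3 and 14.03 CPM in the 3 tumours of BOON-H2. In mouse LOX-B4 Hoxb9 was at 0.612 CPM in tumour 1 and at 97.1 CPM in tumour 3, and the seminal vesicle gene Svs5 was at 183.9 and 142563 CPM in them. The part of seminal vesicle tissue in that difference was not tested.

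**Figure D3:**
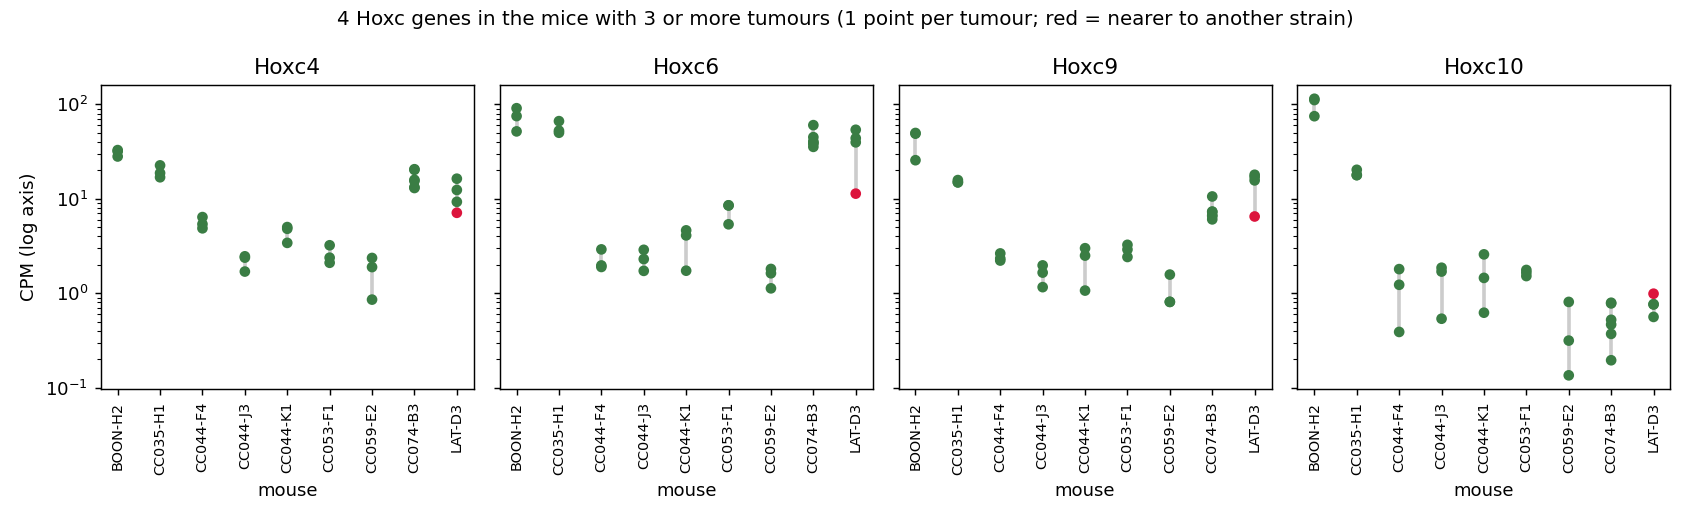
Hoxc4, Hoxc6, Hoxc9 and Hoxc10 (CPM, log axis) in each tumour of the 9 mice with 3 or more tumours, 1 point per tumour with a grey line from lowest to highest. The 3 points of BOON-H2 for Hoxc10 lie at 75.1 to 114.9 CPM and the 6 of CC074-B3 at 0.195 to 0.793 CPM; the red point is the tumour of LAT-D3 nearer to another strain.

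In each of the 6 libraries nearer to another strain than to their own, the Hox profile was also closer to a tumour of that other strain than to any other tumour of the same mouse. This sets the closest of 4 to 14 tumours of the other strain against the 1 to 3 other tumours of the mouse. The median correlation with the tumours of the other strain was below the highest within the mouse in 3 of the 6: 0.734 against 0.840 for Rogan-C3, 0.622 against 0.847 for LAT-F5 and 0.729 against 0.914 for CC059-F2. It was above it in the others, at 0.865 against 0.559 for LOX-D1, 0.636 against 0.605 for LAT-D3 and 0.827 against 0.794 for MEE-A3. The MEE-A3 library and its closest CC044 tumour were both Ptprc-rich, as were 10 of the 14 CC044 libraries. The part of leukocyte content in that match was not tested. The gap to the closest tumour was widest in the second tumour labelled LOX-D1. Its profile over the 39 members had a correlation of 0.978 with a tumour of LAT-D3 and of 0.559 with the first tumour of LOX-D1. Its Hoxc6 was at 44.1 CPM and its Hoxa10 at 0.044 CPM, against 12.2 and 23.8 CPM in the first tumour of that mouse. The second tumour labelled LAT-D3 had 11.4 CPM of Hoxc6 and 19.5 CPM of Hoxa10, whereas the other 3 tumours of LAT-D3 had 39.7 to 53.9 CPM of Hoxc6 and 0.357 to 0.863 CPM of Hoxa10. The gap was narrowest in the second tumour labelled CC059-F2, where the correlations were 0.945 with the closest LAT tumour and 0.914 with the other tumour of the mouse.

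The share of variance of log2 CPM that lay between mice of a strain, rather than between tumours of a mouse, had a median of 65.5% over the 33 members with a mean of at least 1 CPM, against 42.9% over all 15780 genes at that level. Without both kinds of library these medians were 84.7% and 36.4%. The share was highest for Hoxc4 (89.6%), Hoxc9 (84.5%) and Hoxc10 (81.3%), and low for Hoxb9 (23.6%) and Hoxa5 (31.3%). For Hoxa5 it was 84.7% without both kinds of library, and for Hoxb9 32.4%. For Hoxa4 it was 40.2% with all libraries and 23.1% without both kinds. The standard deviation between mice had a median of 1.21 on the log2 scale for the members and 0.40 for all genes. Within a mouse the medians were 0.85 and 0.52. Without both kinds of library they were 1.43 and 0.31 between mice and 0.55 and 0.46 within a mouse.

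A smaller share of Hox members than of all genes passed the strain test. Over the 25 strains that had 3 or more mice, 12 of 37 members tested differed between strains (edgeR quasi-likelihood F-test on counts summed per mouse, adjusted p under 0.05), against 69% of 20687 genes. Of these 12, 10 were among the 15 tested members numbered 9 to 13, and 2, Hoxa5 and Hoxb1, among the 22 numbered 1 to 8. With limma-voom 5 of the 37 passed, against 50.4% of all genes, 3 of them among the 12. Without the Ptprc-rich libraries 7 passed, against 55.8% of all genes, all 7 among the 12. The strains are not equal in their mice of each survival class or in tissue content. Members also varied more between mice of a strain, the spread this test sets strain differences against. Among those with a mean of at least 1 CPM the median SD was 1.21 on the log2 scale, against 0.40 for all such genes. The part of that spread in the lower share was not tested.

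The 4 members of lowest p were all of numbers 11 to 13 and were low or at 0 in most mice. Hoxb13 (adjusted p = 1.40e-05) was highest in CC044, at -0.53 ± 1.84 log2 CPM (SD, n = 7). There it was at 1.34, 2.02, 0.834 and 1.44 CPM in the 4 mice with Ptprc-rich libraries and at 1.5, 0.044 and 0.05 CPM in the other 3, so the groups overlapped. Its adjusted p was 0.000599 without the Ptprc-rich libraries and 0.00839 with limma-voom. Hoxb13 was at 1 CPM or more in 4 of the 35 libraries with over 10 CPM of Svs5, a seminal vesicle gene. Hoxc13 (adjusted p = 0.000452) was highest in CC035, at 8.44, 3.40 and 0.935 CPM in its 3 mice, and at most 0.0419 CPM in the 6 mice of LAX. Hoxc12 (adjusted p = 2.61e-05) rose above 1 CPM in 1 of the 3 mice of CC060, at 4.28 CPM, and the other 2 were at 0 and 0.0806 CPM. Hoxd11 (adjusted p = 0.000458), a limb and kidney gene, was at 0.923, 15.9, 0 and 11.3 CPM in the 4 mice of CC040 and at most 0.171 CPM in the 4 of GIT. Single mice of CC040 and CC060 thus lay as low as those of the lowest strains. With limma-voom the adjusted p was 0.195 for Hoxc12 and 0.768 for Hoxd11.

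No Hox member passed the threshold between the survival classes. In edgeR's test on all 119 mice 0 of 34 members tested differed between mice below and above the median, against 1.56% of 17091 genes. There 2 members and 1544 of all genes had an unadjusted p under 0.05. With limma-voom 0 passed, and 6 members and 487 of all genes had an unadjusted p under 0.05. The fitted change was negative, lower below the median, in 20 of the 34, with a median of -0.20 on the log2 scale against -0.02 over all genes. Hoxb9 had the lowest p. It ranged from 0.0599 to 48.5 CPM (median 0.692 CPM) in mice above the median and from 0.154 to 19.9 CPM (median 0.634 CPM) in mice below. The ranges overlapped, and the log2 change was -1.17 ± 0.47 (SE) with an adjusted p of 0.328. In DESeq2 it passed with -1.68 ± 0.39 and an adjusted p of 0.00302, as 1 of 34 members against 1.67% of all genes. With limma-voom its change was -0.40 ± 0.38 (adjusted p = 0.9996). Without the 8 strains CC001, CC021, CC036, CC058, CC081, GIT, LAX and Piping it also passed, at -1.91 ± 0.53 (adjusted p = 0.0196). With strain as a covariate the change was -0.07 ± 0.66 (adjusted p = 0.979). The next members were Hoxa6 at -0.54 ± 0.25 (adjusted p = 0.468), Hoxd4 at -0.48 ± 0.25 (adjusted p = 0.574) and Hoxd3 at -0.54 ± 0.34 (adjusted p = 0.724), all edgeR. Seminal vesicle (4 of 9 tested), intestine (3 of 9) and kidney (4 of 6) markers were lower in mice below the median. Leaving out libraries where other tissue markers passed 1% of counts gave -0.97 ± 0.51 for Hoxb9 in edgeR (adjusted p = 0.587). Leaving out those over 10 CPM of Svs5 gave -0.97 ± 0.52 for Hoxb9 (adjusted p = 0.499) and -0.37 ± 0.26 for Hoxa6 (adjusted p = 0.645). Hoxd4 and Hoxd3 were larger there, at -0.55 ± 0.28 and -0.68 ± 0.38. The part of these tissues was otherwise not tested.

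Within the 13 strains that held both classes (35 mice above and 22 below), 0 of 31 members passed in edgeR, as did 0% of 16481 genes. There 2 members and 1882 of all genes had an unadjusted p under 0.05. The lowest p belonged to Hoxa13, at -1.66 ± 0.68 on the log2 scale (SE, adjusted p = 0.412), Hoxa11 at -1.68 ± 0.76 (adjusted p = 0.423), Hoxa3 at 0.50 ± 0.25 (adjusted p = 0.442) and Hoxd10 at -1.01 ± 0.53 (adjusted p = 0.46). DESeq2 called 65 genes and 0 of the members, and 6 of the members and 2664 of all genes had an unadjusted p under 0.05. The median standard error of a member was 0.28 on the log2 scale over all mice and 0.42 within strain.

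**Figure D4:**
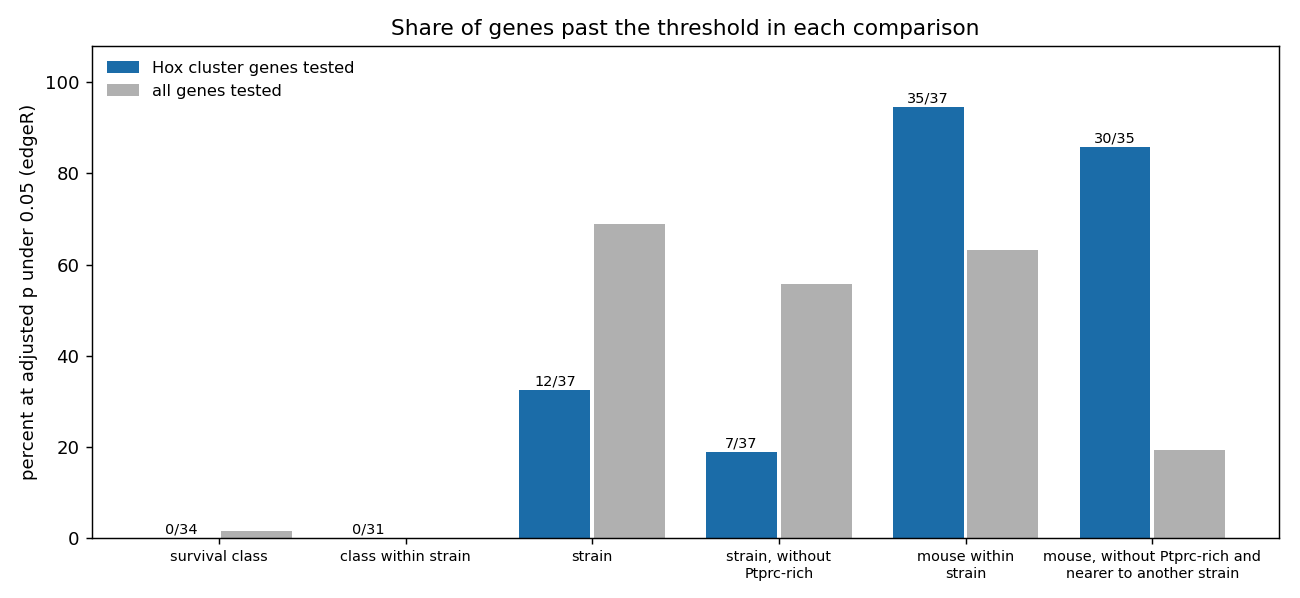
Percent of Hox cluster genes (blue, with called over tested) and of all genes (grey) at an adjusted p under 0.05 in edgeR, for survival class, class within strain, strain and mouse within strain, with both last comparisons also without the libraries named below the bars. The members stand below all genes for strain, at 12 of 37 against 69%, and above them for mouse, at 35 of 37 against 63.3%.

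Members lying next to each other in a cluster varied together over mice, and the relation weakened with distance. Spearman's rho over 119 mice had a median of 0.644 for the 35 pairs of neighbours, 0.336 for the 23 pairs 4 members apart and 0.0265 for the 11 pairs 7 apart. It was 0.298 for the 42 pairs of equal number in different clusters and 0.136 for the 527 other pairs. Of all pairs of members 352 were past an adjusted p of 0.05, 11 of them negative, and 311 without the mice with a Ptprc-rich library. With strain means removed the neighbours' median was 0.683.

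The 4 highest pairs were Hoxb5 with Hoxb6 (rho = 0.906, r = 0.907, r without the 2 farthest mice = 0.907), Hoxa9 with Hoxa10 (rho = 0.900, r = 0.894, without those 0.895), Hoxc5 with Hoxc8 (rho = 0.837, r = 0.844, without those 0.824) and Hoxc4 with Hoxc5 (rho = 0.836, r = 0.877, without those 0.837). In each the permutation p was 1e-05 for rho and r, the smallest that 100000 permutations can give, with an adjusted p of 5.79e-05 for rho and 5.26e-05 for r. Hoxa7 and Hoxa9, which also lie next to each other, had a rho of 0.266. The lowest were Hoxa3 with Hoxb13 (rho = -0.270, permutation p = 0.00336, adjusted p = 0.0094, r = -0.20, permutation p = 0.0292, adjusted p = 0.0567) and Hoxb3 with Hoxb13 (rho = -0.259, permutation p = 0.00423, adjusted p = 0.0114, r = -0.31, permutation p = 0.00111, adjusted p = 0.00319). Without the mice with a Ptprc-rich library the rho of these 2 was -0.127 (adjusted p = 0.324) and -0.0609 (adjusted p = 0.681), whereas the 4 highest stayed between 0.814 and 0.892.

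**Figure D5:**
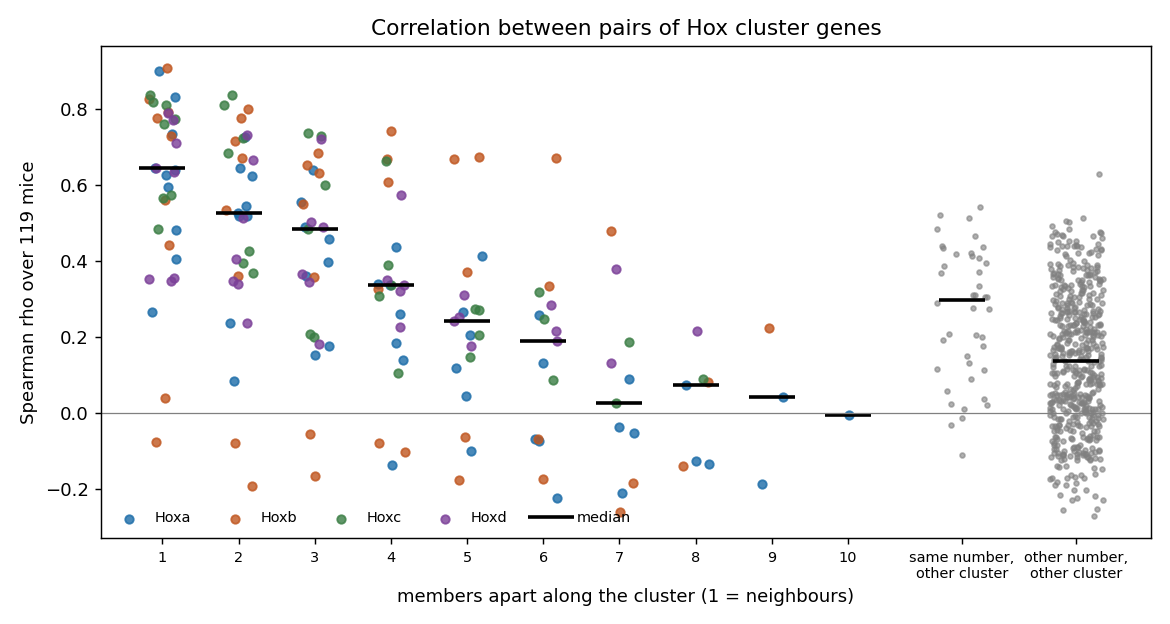
Spearman's rho over 119 mice for each of the pairs of members, by the number of members apart along a cluster (coloured by cluster) and, in grey, for pairs in different clusters; black bars are medians. The median falls from 0.644 for neighbours to 0.0265 at 7 apart.

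Hoxa9 and Hoxa10 are shown by the RefSeq promoter sequence upstream of their start sites, as the neighbouring pair of highest rho that has one, and Hoxc4 as the member of lowest p between mice of a strain. Capitals mark CpG dinucleotides, where promoters of Hox genes can be methylated. The sequences are the 250 bases before the RefSeq start in GRCm38.p6, on the strand of the gene: Hoxa9 at chr6:52227371-52227620 (minus), Hoxa10 at chr6:52240855-52241104 (minus) and Hoxc4 at chr15:103034145-103034394 (plus). The first and last of these starts lie 3719 and 15461 bases from the 5′ end of the gene in GENCODE.
Hoxa9: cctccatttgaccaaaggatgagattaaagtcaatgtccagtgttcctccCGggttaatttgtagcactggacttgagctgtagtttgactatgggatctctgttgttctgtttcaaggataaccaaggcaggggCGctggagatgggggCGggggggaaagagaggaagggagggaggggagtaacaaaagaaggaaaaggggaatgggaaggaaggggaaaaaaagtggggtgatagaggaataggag
Hoxa10: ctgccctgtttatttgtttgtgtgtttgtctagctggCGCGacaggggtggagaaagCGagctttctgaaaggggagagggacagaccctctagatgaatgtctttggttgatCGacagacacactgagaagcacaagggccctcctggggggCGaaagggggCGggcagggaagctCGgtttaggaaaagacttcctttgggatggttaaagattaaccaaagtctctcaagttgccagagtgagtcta
Hoxc4: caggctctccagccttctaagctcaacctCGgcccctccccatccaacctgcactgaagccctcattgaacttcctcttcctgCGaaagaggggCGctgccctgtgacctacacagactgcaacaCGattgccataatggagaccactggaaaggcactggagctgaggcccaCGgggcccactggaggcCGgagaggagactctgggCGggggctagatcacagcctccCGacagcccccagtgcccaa
They hold 3, 7 and 8 CpG. RefSeq gave 24 windows of 300 bases, 250 before to 50 after a start, for 22 of the 39 members. These had a median of 14.5 CpG, from 4 in Hoxa9 to 45 in Hoxa13, against 7 over all 32851 windows. The GC box GGGCGG, on either strand, was in 10 of the 24 windows and in 35.66% of all, and those of Hoxa9, Hoxa10 and Hoxc4 had it. The TATA box TATAAA was in 4 of 24 and 13.62% of all, and the Pbx-Hox site TGATTNAT in 2, of Hoxa2 and Hoxd11, and 3.22% of all. A match describes letters only.

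Genes that act with Hox proteins or on the clusters, from lists chosen by function, were counted in the same fits. By survival class 0 passed among 10 TALE cofactors, the Pbx, Meis and related homeodomain partners, 17 Polycomb genes, 12 Trithorax genes and activators, 17 genes of retinoic acid signalling, which turns Hox genes on in the embryo, and 3 repressors of Hox genes. At an unadjusted p under 0.05 in edgeR there were 2 Polycomb, 1 Trithorax and 2 retinoic acid genes and 0 of the other lists. Over all 17091 genes tested there were 1544. Between strains 2 of 10 TALE cofactors, 12 of 17 Polycomb, 9 of 12 Trithorax, 14 of 17 retinoic acid genes and 3 of 3 repressors passed, against 69% of all genes. The caudal gene Cdx2 and the retinoid receptor gene Rxrb had the lowest p of the lists there (F = 9.69, adjusted p = 3.83e-13, and F = 7.37, adjusted p = 9.06e-11). Cdx2 also counts among the intestine markers. Between mice of a strain 9 of 10 TALE cofactors, 14 of 17 Polycomb, 8 of 12 Trithorax, 16 of 17 retinoic acid genes and 2 of 3 repressors passed, against 63.3% of all genes. That share was 19.3% without the Ptprc-rich libraries and those nearer to another strain, and the lists were counted with all libraries only. Noncoding RNAs of the clusters were not analysed here.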

How the data were processed

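RNA was extracted from whole tumours and made into strand-specific mRNA libraries, per the labels' protocols. kallisto 0.46.1, the build GRCm38, DESeq and DESeq2 are named, with no roles, per the submitters' processing notes. No source used here names the annotation release. The authors deposited estimated counts per gene as whole numbers. Symbols and positions came from GENCODE vM21 (GRCm38), which held 35825 of the 36118 genes. The deposited columns were joined by title, and the 2 of mouse GIT-K1 only to their mouse.

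The members, gene lists and tests were chosen with earlier results of these data known. Counts were summed per mouse for the class and strain tests and kept per tumour for the mouse test, then filtered with filterByExpr and tested, with TMM factors, in edgeR 4.0.16 (R 4.3.3, two-sided, Benjamini-Hochberg over all genes tested). limma 3.58.1 (voom) and DESeq2 1.42.0 were alternatives. Log2 CPM used a prior count of 2. Statistics are given for members past the threshold, or the 4 of lowest p, and for the 4 highest and 2 lowest pairs. On counts simulated with a log2 change of 2, edgeR recovered 100 of 100 genes for class, class within strain and strain and 93 of 100 for mouse. With a change of 1 it recovered 100 of 100 for class, 98 within strain, 76 for strain and 9 for mouse. Recovery at the spread of the Hox members was not tested. Their SD between mice had a median of 1.21 on the log2 scale, against 0.40 for all genes. Nothing labels the tumours as separate lesions or the mice as separate litters, so p-values measure the spread between these samples. For class and strain that is the spread between mice. For the mouse test it is the spread between tumours of a mouse. One member counted among the 39 is not reported here by name.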

Additional observations from a re-analysis of the deposited data

Results flagged for a closer look

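Of 11 groups of 4 to 10 values checked, 1 held a value set far apart from the others by Dixon's ratio, which chance gives in about 1 of 20 groups. It was Hoxc9 in the 6 tumours of mouse CC074-B3, at 10.6 CPM in tumour 9 against 6.06 to 7.34 CPM in the other 5.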

How the results depend on the processing

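The count of members past the threshold by survival class was 0 and became 1, Hoxb9, with DESeq2 and without the 8 strains; it was 0 under the other 9 alternatives and within strain under all 8. Between strains 12 members passed, 5 with limma-voom, 7 without the Ptprc-rich libraries and 7 without these and those nearer to another strain; leaving out mouse 1, 2 or 3 of every strain gave 8 to 12, and the other alternatives 8 to 12. Between mice of a strain the 35 members became 29 to 35. The count of correlated pairs was 352 and 264 to 352 under 6 alternatives, but 83 within the 8 strains, which hold 28 mice. At a limit of 5 CPM the median number of members was 5 in Hoxa, 5 in Hoxb, 4 in Hoxc and 1 in Hoxd. The cause of these changes was not tested. The alternatives without Ptprc-rich libraries, limma-voom without displaced libraries and pairs without displaced mice were chosen after seeing the data. No paired analysis was possible because the numbers in the labels count tumours, mice and libraries and link no mouse of one class to one of the other. Members near 0 are limited by counting at these depths.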
